A study of Mus musculus with 18 samples.

Results

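Sorted CD4-negative, CD8-negative (DN) thymocytes were compared with unsorted total thymocytes in mice that had received an isotype control antibody, so the comparison describes how the most immature cells of an undisturbed thymus differ from the whole organ's cells. It used 7 of the 18 arrays of the study: 3 labelled DN-isotype control and 4 labelled Thymocytes-isotype control. They were chosen by these labels alone, with no measured value involved. All mice were C57BL/6 and were killed 2 weeks after the antibody. Neither their age nor an altered allele is given in the labels. The DN cells were stained and sorted by CD4 and CD8 surface protein, while the thymocytes were neither stained nor sorted. The same comparison in mice given an antibody against the Notch ligand DLL4 (3 DN-anti-DLL4 and 3 Thymocytes-anti-DLL4 arrays) was used as a set of separate arrays. The study's design text names 4 animals per antibody and 3 control thymocyte samples. The labels give 4 control thymocyte samples, and all were used. No label ties a sample to an animal, so p-values measure the spread between samples, which may share animals.

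T cells mature in the thymus through ordered stages. Progenitors enter as DN cells, pass DN1 to DN4 under Notch signals from the thymic stroma, rearrange the T-cell receptor beta chain with the RAG recombinase, and then switch on CD4 and CD8 together as double-positive (DP) cells. DP cells make up most of a normal thymus, rearrange the alpha chain, and after selection become single-positive CD4 or CD8 cells that leave the organ. A DN gate also takes in cells of other kinds that carry neither protein, such as gamma-delta T cells, B cells, NK cells, macrophages and granulocytes. A preparation of total thymocytes holds whatever non-T cells were released from the tissue with them.

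A level below is the log2 processed signal of a probe minus the 75th percentile of its array, and a gene is given by its brightest probe. A difference is DN minus thymocytes on that log2 scale, relative to the median of all genes tested. That median lay 0.36 above 0. Spreads of levels are SDs and errors of differences are SEs from limma. Genes whose probe was well above background on 2 or more of these 7 arrays were tested with limma. A call means a p-value below 0.05 after Benjamini-Hochberg adjustment over every gene tested.

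The DN arrays were not alike. Their 75th percentiles of processed signal were 260.2, 337.9 and 675.5 for replicates 1 to 3, against 524, 685.9, 2169.2 and 2468.1 for thymocyte replicates 1 to 4. DN replicate 1 correlated with the thymocyte arrays at 0.75 to 0.80 over the genes tested, replicate 2 at 0.85 to 0.87 and replicate 3 at 0.90 to 0.94, while thymocyte arrays correlated with each other at 0.92 to 0.94. The DN arrays correlated with each other at 0.775 to 0.92. Replicate 3 correlated with DN replicates 1 and 2 at 0.775 and 0.894, below its 0.896 to 0.935 with the thymocyte arrays. The median SD of a gene was 1.03 in DN cells and 0.787 in thymocytes. On the 2 dim DN arrays the difference moved with the level of the gene. The 4151 genes with a mean level below -5 had a median difference of 1.73 on DN replicate 1, 1.01 on replicate 2 and -0.10 on replicate 3, while the 2754 genes with a level from 2.5 to 5 had medians of -1.87, -0.84 and 0.17. In the anti-DLL4 arrays the same bins had medians of -0.22 and 0.10. DN replicate 3 is therefore given on its own beside the results below, as is the fit without both dim arrays, which leaves 1 DN array and assumes that it varies as the other groups do. With array strength, the log2 of the 75th percentile, as a covariate in the fit, 34 genes were called higher and 189 lower, beside 84 and 197 without it. Of the 84 higher genes 19 were called again in that fit, and of the 197 lower genes 119.

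Of 21678 genes tested, 281 (1.30%) were called. In DN cells 84 were higher (0.387% of the genes tested) and 197 were lower (0.909%), and 4558 genes (21.0%) had an unadjusted p under 0.05. In 6 bins of rising mean level, with bounds at -5, -2.5, 0, 2.5 and 5, there were 3, 15, 36, 78, 50 and 15 lower genes and 43, 29, 5, 3, 3 and 1 higher ones. For 41 of the 84 the probe was not well above background on any thymocyte array, so these passed the filter on dim probes only through the DN arrays. With probes well above background on all 7 arrays, 16 genes were called higher and 169 lower. All 197 lower genes had every DN array below every thymocyte array, a state that 7.09% of all genes tested shared. For 83 of the 84 higher genes every DN array lay above every thymocyte array (6.82% of all genes). The median difference of the lower genes was -3.27, and it was -3.86, -3.27 and -2.49 on DN replicates 1 to 3. That of the higher genes was 4.27, and 5.14, 4.38 and 3.32 by replicate. A single slide, slide 6, held arrays of both populations (DN replicate 3 and thymocyte replicate 4). Within it the median difference was -2.46 for the lower genes and 3.29 for the 82 higher genes measured there. The medians by replicate and within the slide come from arrays that made the calls. Their signs were therefore largely fixed by the choice of genes. With slide as a fixed block 5 genes were called higher and 5 lower. Of the genes named below, Nlrc4, Aifm2, Gm6260, Adamdec1, Ptgs1 and Ccr7 were called in that fit.

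**Figure D1:**
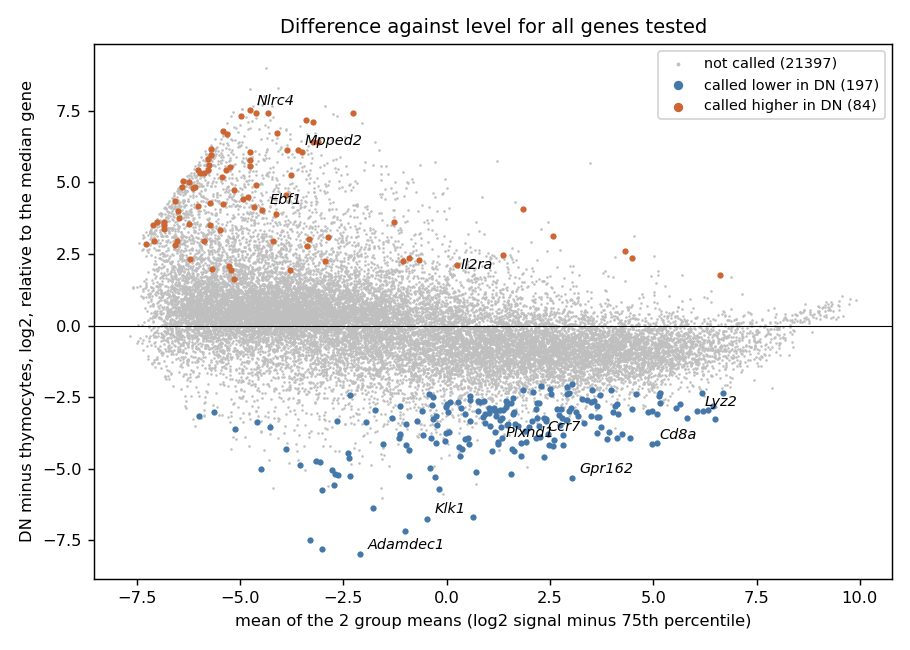
Each point is 1 of the 21678 genes tested, with the mean of the 2 group means on the x axis (log2 signal minus the array's 75th percentile) and the log2 difference, DN minus thymocytes, on the y axis. Of the 197 genes called lower in DN (blue) 78 lie between a level of 0 and 2.5, and of the 84 called higher (orange) 43 lie below a level of -5 and 29 between -5 and -2.5.

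Both counts depended on single arrays. Without DN replicate 3 there were 2151 higher and 746 lower genes, without replicate 1 there were 14 and 67, and without replicate 2 there were 20 and 54. Without thymocyte replicates 1 to 4 in turn there were 81, 31, 28 and 51 higher and 112, 85, 88 and 157 lower genes. Without both dim DN arrays 0 genes were called higher and 16 lower, with 1504 genes at an unadjusted p under 0.05 in limma. In that fit 10 of the 197 lower genes were called again, and 40 of the 84 higher genes were tested.

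The sort was first checked on the genes of its own markers. Cd8a, the alpha chain of the CD8 coreceptor, had levels of 2.22, 3.25 and 3.79 in DN cells and 6.33, 7.84, 6.75 and 6.52 in thymocytes. Every DN array lay below every thymocyte array, and the difference was -4.14 ± 0.88 (adjusted p = 0.0482). This call was kept in 1 of 7 fits that left out an array (without DN replicate 3). It was lost without each of the other 6, where the difference ran from -4.39 to -3.57 and the adjusted p reached 0.188. Without both dim arrays it was -2.99 (adjusted p = 0.630). The probe whose sequence is printed here reads a separate stretch of Cd8a from the one used above, at chr6:71303400-71303459 in the mm8 build that the files use, and is shown because it gave the clearest difference of the gene's 3 probes.
Cd8a probe: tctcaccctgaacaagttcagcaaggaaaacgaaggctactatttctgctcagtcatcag
Its levels were -2.63, -3.68 and -3.71 in DN cells against 2.66, 2.10, 2.40 and 1.89 in thymocytes. With every probe fitted on its own its difference was -5.96 ± 0.81 (adjusted p = 0.00454). The third probe of Cd8a had a difference of -4.11 (adjusted p = 0.149), so all 3 pointed the same way.

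Cd8b1, the beta chain of CD8, had levels of 6.82, 6.96 and 7.14 in DN cells and 9.95, 9.73, 7.87 and 7.65 in thymocytes. The groups did not overlap, but the difference of -2.19 ± 0.80 was not called (adjusted p = 0.211). With array strength as a covariate it was -3.17 and was called (adjusted p = 0.016). Transcripts of both CD8 chains thus remained well above background on all 3 DN arrays. On the 3 DN-anti-DLL4 arrays Cd8b1 read 3.78, 4.09 and 3.64. The array carries 1 probe for Cd4, the other coreceptor of the gate. It was dim in both populations, at -0.75, -2.68 and -3.29 in DN cells and between -3.34 and -2.43 in thymocytes, and showed no called difference (0.33 ± 0.85, adjusted p = 0.643). Gpr162, an orphan receptor gene that lies beside Cd4 on chromosome 6 in the RefSeq annotation of GRCm38.p6, read 1.47, -0.28 and 0.44 in DN cells and 6.86, 5.22, 4.97 and 4.97 in thymocytes. It was lower in DN cells by a difference of -5.33 ± 0.71 (adjusted p = 0.00372), which stayed called without any one array. It was not called without both dim arrays (-4.99, adjusted p = 0.136) or with slide as a fixed block (-5.98, adjusted p = 0.0892).

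Il2ra encodes CD25, the interleukin-2 receptor chain that marks the DN2 and DN3 stages. It read 0.20, 1.54 and 1.97 in DN cells and -1.51, -1.21, -0.28 and -0.65 in thymocytes. All DN arrays lay above all thymocyte arrays, yet the difference of 1.79 ± 0.66 was not called (adjusted p = 0.113). It was 2.35 within slide 6 and 2.97 without both dim arrays (adjusted p = 0.470). With array strength as a covariate it was called (2.97, adjusted p = 0.0441). Of the 5 Il2ra probes 4 were tested, and all 4 had higher values in DN cells. One of them is shown for its even values over thymocytes, and its mapped ends, chr2:11598256-11599820 in mm8, lie further apart than its 60 bases.
Il2ra probe: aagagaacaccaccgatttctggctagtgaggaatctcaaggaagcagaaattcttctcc
This probe read -1.01, -0.62 and 0.21 in DN cells and between -2.92 and -2.49 in thymocytes, and its difference was 1.92 ± 0.80 (adjusted p = 0.153 with every probe fitted on its own). Cd44, the adhesion receptor that marks the earliest DN cells and mature T cells, had a difference of -0.15 ± 0.43 (adjusted p = 0.791) with overlapping groups. In bulk RNA, fewer cells of a type and less RNA per cell cannot be told apart, here and in the results that follow.

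**Figure D2:**
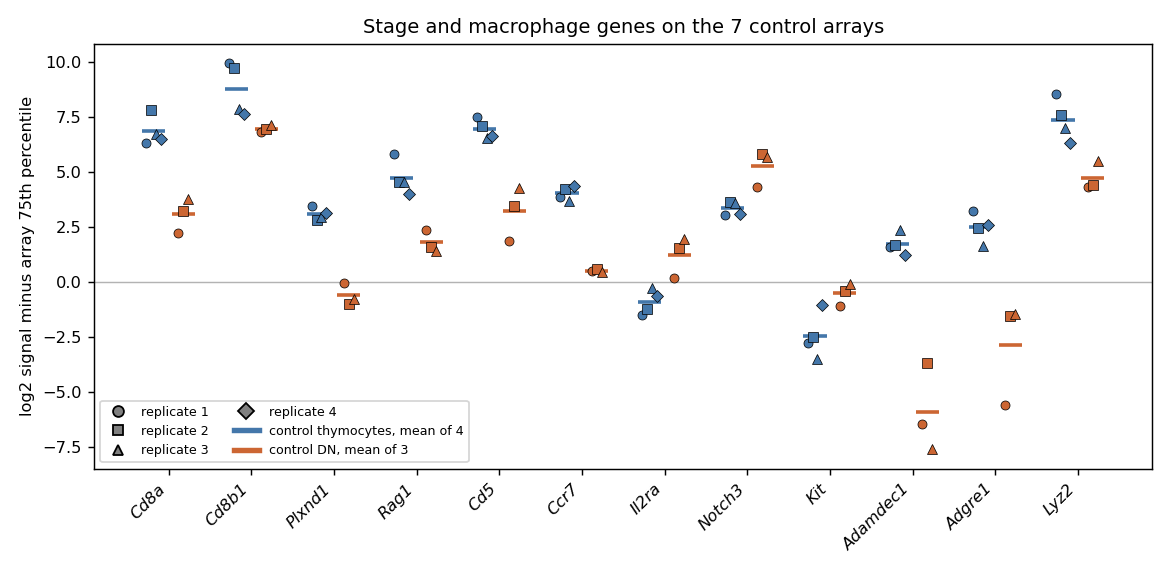
Levels (log2 signal minus the array's 75th percentile) of 12 genes on the 4 control thymocyte arrays (blue) and the 3 control DN arrays (orange), with a bar at each group mean. Cd8a, Plxnd1, Cd5, Ccr7, Adamdec1, Adgre1 and Lyz2 were called lower in DN cells, while Il2ra and Notch3 lie higher on every DN array without passing the test.

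Of the 16 genes of the DP stage that were listed and tested, 6 were called lower in DN cells and none higher. The shares over all genes were 0.909% and 0.387%. Every DN array lay below every thymocyte array for 11 of the 16, against 7.09% of all genes. The median difference of the list was -2.66 beside 0 for all genes, and it was -2.72, -3.0 and -1.84 on the separate DN arrays. Bright genes in general were lower too. The 3596 genes with levels from 0 to 2.5 had a median of -0.70, and 78 were called lower. For the 2754 genes from 2.5 to 5 these values were -0.88 and 50. On DN replicate 3 alone the 2 medians were 0.26 and 0.17. The 0, the 0.909% and the 7.09% do not take level into account, here or for the lists below. Plxnd1, a semaphorin receptor of DP thymocytes, read -0.05, -1.02 and -0.76 against 3.47, 2.84, 2.96 and 3.12. Its difference of -4.07 ± 0.46 (adjusted p = 0.00196) stayed called without any one array. Ets2, an ETS-family transcription factor, read 2.96, 3.67 and 4.02 against 5.93, 6.33, 6.29 and 6.27, a difference of -3.02 ± 0.41 (adjusted p = 0.00569) that also stayed called. Without both dim arrays neither was called, with -3.78 for Plxnd1 (adjusted p = 0.0598) and -2.10 for Ets2 (adjusted p = 0.289). Bcl2l1, which encodes the survival protein BCL-XL, read -1.86, -1.40 and -0.51 in DN cells and 1.13 to 1.31 in thymocytes. Its difference was -2.83 ± 0.42 (adjusted p = 0.00993), and was not called without DN replicate 1 (-2.39, adjusted p = 0.0523) or 2 (-2.66, adjusted p = 0.0649). The chromatin organiser Satb1 was also called (-2.70 ± 0.53, adjusted p = 0.0440).

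The recombinase genes Rag1 and Rag2, active in both DN3 and DP cells, lay lower on every DN array without passing the test. Rag1 had a difference of -3.28 ± 0.73 (adjusted p = 0.0605) and Rag2 one of -2.03 ± 0.91 (adjusted p = 0.300). Dntt, the terminal transferase that adds bases at receptor joints, had a difference of 0.30 (adjusted p = 0.512). No call of the DP list was made without both dim DN arrays, where its median was -1.79, or with slide as a fixed block. The list had 2 calls without DN replicate 1 (Plxnd1 and Ets2, not Satb1), 3 without replicate 2, 8 without replicate 3, and 4 without any one thymocyte array.

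In the list of single-positive and egress genes, which later, selected cells express, 3 of 16 were called lower, none higher, and the median was -1.76 (-1.99, -1.82 and -0.95 on the DN arrays). Ccr7, the chemokine receptor that takes selected thymocytes into the medulla, read 0.49, 0.59 and 0.46 in DN cells and 3.86, 4.22, 3.69 and 4.35 in thymocytes. The values were tight in both populations, with SDs of 0.07 and 0.31, and the difference was -3.88 ± 0.46 (adjusted p = 0.00201). Cd5, a receptor that damps T-cell receptor signals and rises with their strength, read 1.87, 3.48 and 4.29 against 7.51, 7.11, 6.53 and 6.66, a difference of -4.10 ± 0.56 (adjusted p = 0.00442). Both stayed called without any one array, and neither was called without both dim arrays (-3.49, adjusted p = 0.124 for Ccr7 and -2.58, adjusted p = 0.278 for Cd5). S1pr1, the sphingosine phosphate receptor needed for exit from the thymus, had a difference of -2.95 ± 0.41 (adjusted p = 0.00629), and of -2.52 (adjusted p = 0.0516) without DN replicate 2. The list had 6 calls without DN replicate 3, 2 without replicate 2 and none without both dim arrays, where its median was -0.90.

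In the T-cell receptor complex and its proximal signalling, 3 of 15 genes were called lower and none higher, with a median of -1.87 (-2.91, -1.99 and -0.76 by DN array). They were Cd5, the TEC-family kinase gene Txk (-3.93 ± 0.59, adjusted p = 0.00852) and the adhesion receptor gene Cd2 (-3.26 ± 0.55, adjusted p = 0.0168). Txk was not called without DN replicate 2 (-3.55, adjusted p = 0.0614). Cd2 was not called without DN replicate 1 (-3.22, adjusted p = 0.0545), DN replicate 2 (-3.11, adjusted p = 0.0886) or thymocyte replicate 2 (-3.09, adjusted p = 0.0595). The list had 1 call without DN replicate 2, 8 without replicate 3, none without both dim arrays and none in the fit of the 7 arrays alone. The CD3 chain genes differed little, with differences of -1.04 for Cd3d, -0.91 for Cd3e and -0.25 for Cd3g, and none was called. After their values were seen, the probes named for receptor loci were also read. Tcra, the alpha chain locus, read 0.26, -0.27 and -1.13 in DN cells and 4.54, 2.94, 3.96 and 2.83 in thymocytes, a difference of -4.31 ± 0.48 (adjusted p = 0.00196). Tcrg, the gamma chain locus, read 7.58, 7.79 and 7.63 against 6.24, 5.91, 5.59 and 4.44, a difference of 1.76 ± 0.46 (adjusted p = 0.0380). Gene segments of these loci share sequence, so which segments a probe reads is uncertain.

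None of the 18 genes of the DN2 to DN3 stages and of Notch signalling was called in either direction. Their median was 0.15 (-0.20, 0.21 and 0.74 by DN array). It was 0.59 within slide 6, 0.79 without both dim arrays and -0.85 with normexp background correction. Notch3, a Notch receptor of the DN3 stage, read 4.31, 5.84 and 5.71 in DN cells and 3.06, 3.65, 3.62 and 3.12 in thymocytes. Its groups did not overlap, and its difference was 1.56 ± 0.66 (adjusted p = 0.136). Notch1, the receptor that commits progenitors to the T lineage, overlapped between groups with a difference of 0.03 ± 0.71 (adjusted p = 0.758), and its sign turned under 11 of the alternatives. The Notch target Hes1 had a difference of 1.70 ± 0.64 (adjusted p = 0.113), and Ptcra, the partner of the rearranged beta chain at the pre-T-cell stage, one of 0.33 ± 0.83 (adjusted p = 0.634) whose sign turned under 2 alternatives, normexp background correction and slide as a fixed block.

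Among progenitor genes 1 of 16 tested was called, Hoxa9, which is described with the other higher genes below, and the list's median was 0.67 (0.50, 0.94 and 1.06 by DN array). Kit, the stem cell factor receptor of the earliest progenitors, read -1.07, -0.38 and -0.09 in DN cells and -2.77, -2.49, -3.49 and -1.07 in thymocytes. The groups met at thymocyte replicate 4, and the difference of 1.58 ± 0.62 was not called (adjusted p = 0.120). Of the gamma-delta and innate-like T-cell genes 10 were tested, with a median of 0.59. The highest was Cd163l1, a scavenger receptor gene of gamma-delta T cells, which read 1.61, 3.31 and 4.41 in DN cells and -1.96 to 1.39 in thymocytes (difference 2.71 ± 0.93, adjusted p = 0.109). The single call of that list was Icos, a costimulatory receptor, which was lower (-3.01 ± 0.54, adjusted p = 0.0269) and was not called in 4 of the 7 fits without an array (DN replicates 1 and 2, thymocyte replicates 1 and 2), in which its difference ran from -2.92 to -2.63 and its adjusted p reached 0.165.

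The cell-type list with the most calls was that of monocytes and macrophages. Of its 18 genes 8 were called lower (0.909% of all genes tested) and none higher. Every DN array lay below every thymocyte array for 11 of the 18, against 7.09% of all genes. The median difference was -3.36 (-3.71, -4.06 and -2.25 by DN array). Adamdec1, a metalloprotease gene of tissue macrophages and dendritic cells, read -6.46, -3.66 and -7.61 in DN cells and 1.6, 1.69, 2.36 and 1.25 in thymocytes. It was well above background on 1 of 3 DN arrays and on all 4 thymocyte arrays. Its difference was -7.99 ± 0.99 (adjusted p = 0.00196), and it was called without any one array, within -9.02 to -7.24. Without both dim arrays the difference was -9.25, from the -7.61 of DN replicate 3 alone. These sizes and the adjusted p rest mostly on DN signals that were not well above background. Adgre1, which encodes the macrophage antigen F4/80, read -5.57, -1.54 and -1.46 against 3.23, 2.48, 1.63 and 2.60. Its difference of -5.70 ± 0.85 (adjusted p = 0.00686) stayed called without any one array, and was -3.86 (adjusted p = 0.165) without both dim arrays.

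Fcgr1, the high-affinity Fc receptor CD64, was at -6.67 and -5.94 on the dim DN arrays and at -0.62 on DN replicate 3, against 1.62 to 2.99 in thymocytes. Its difference was -7.17 ± 1.29 (adjusted p = 0.0170). The probe was well above background on 1 of 3 DN arrays, so this size rests mostly on DN signals that were not. The value was -2.93 (adjusted p = 0.673) without both dim arrays, and the call was lost without DN replicate 1 (-5.91, adjusted p = 0.103), DN replicate 2 (-6.31, adjusted p = 0.111) or thymocyte replicate 3 (-6.92, adjusted p = 0.0539). The complement genes C1qa (-3.96 ± 0.58, adjusted p = 0.00700) and C1qc (-4.19 ± 0.62, adjusted p = 0.00779) were lower too, as were the colony-stimulating factor receptor gene Csf1r (-3.92 ± 0.82, adjusted p = 0.0459) and the iron exporter gene Slc40a1 (-5.11 ± 1.08, adjusted p = 0.0451). Lyz2, the lysozyme of phagocytes, was bright throughout, at 4.32, 4.41 and 5.49 in DN cells and 8.56, 7.6, 7.01 and 6.34 in thymocytes, with a difference of -3.0 ± 0.56 (adjusted p = 0.0325). Leaving out an array kept the Slc40a1 call in 1 of 7 fits and the Lyz2 call in 2 of 7. Slc40a1 was lost without every array but DN replicate 3 (-5.25 to -4.20, adjusted p up to 0.193), and Lyz2 without DN replicates 1 and 2 and thymocyte replicates 1 to 3 (-3.06 to -2.66, adjusted p up to 0.167). The list had 4 calls without DN replicate 1, 4 without replicate 2, 12 without replicate 3, and 5, 5, 4 and 8 without thymocyte replicates 1 to 4. Adamdec1 and Adgre1 were among them each time, so C1qa, C1qc and Csf1r did not all stay called where the list had 4. Without both dim arrays 1 was called, Adamdec1, and the list's median was -2.20. The summed linear level of the list was 36.7 to 91.5 times the array's 75th percentile in DN cells and 208 to 739 times in thymocytes, so the groups did not overlap.

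Neutrophil genes had the lowest median of any list, -4.45, and it was as low on DN replicate 3 (-4.52) as on the dim arrays (-3.35 and -3.57). None of the 12 was called, while 7 had every DN array below every thymocyte array, a state that 7.09% of all genes tested shared. S100a8, an alarmin subunit packed in neutrophils, read -4.36, -1.96 and -2.23 against 3.94, 3.05, 1.81 and 1.85 (difference -5.87 ± 2.22, adjusted p = 0.18). Ngp, a granule protein gene, read -4.74, -3.68 and -4.30 against 2.85, 0.90, 0.65 and -0.09 (difference -5.68 ± 1.66, adjusted p = 0.117). The errors of both were large, in a fit that shares its estimate of the spread with the other groups. In the fit of the 7 arrays alone S100a8 (adjusted p = 0.0308) and Ngp (adjusted p = 0.030) were called, and over the settings tried the list had 0 to 3 lower calls.

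Of conventional dendritic cell genes 3 of 15 were called lower, with a median of -1.31 (-1.79, -1.66 and -1.74 by DN array). They were Ccr7, which selected thymocytes also express, the lectin gene Clec10a (-4.87 ± 0.77, adjusted p = 0.00973) and the integrin gene Itgax (-4.55 ± 0.87, adjusted p = 0.0296). Clec10a, whose probe was well above background on 1 of 3 DN arrays, was lost without DN replicate 1 (-4.21, adjusted p = 0.0589) or 2 (-4.31, adjusted p = 0.0697). Itgax was lost in 5 of 7 such fits (all but those without DN replicate 3 or thymocyte replicate 4; -4.79 to -3.47, adjusted p up to 0.142), and a second Itgax probe had the opposite sign. In the plasmacytoid dendritic cell list 3 of 13 were called lower, with a median of -0.59 that was -1.97 and -1.5 on the dim arrays and 0.16 on DN replicate 3. Klk1 is a kallikrein of a large family of near-identical genes, so its identity is uncertain. It read -1.80, -4.30 and -4.91 against 4.12, 3.58, 1.5 and 1.67. Its difference of -6.75 ± 0.83 (adjusted p = 0.00196) stayed called without any one array, and was -7.54 without both dim arrays. Klk1 was not called with slide as a fixed block or with the mean of all probes. Its second probe had a difference of -1.0 (adjusted p = 0.702 with every probe fitted on its own). The other 2 calls of this list were Pacsin1 (-3.71 ± 0.64, adjusted p = 0.0176) and the RNA sensor gene Tlr7 (-3.02 ± 0.62, adjusted p = 0.0483). Pacsin1 was lost in 4 of 7 fits without an array (DN replicates 1 and 2, thymocyte replicates 2 and 3, with -3.67 to -3.34 and adjusted p up to 0.108). Tlr7 was lost in 6 (all but DN replicate 3, with -3.35 to -2.46 and adjusted p up to 0.18). A Pacsin1 probe well above background on every array of both groups had the opposite sign (0.45), and the Pacsin1 call was lost with the mean of all probes. MHC class II presentation genes gave no call among 10 and a median of -1.17. The class II chain gene H2-Aa lay lower on every DN array (-2.02 ± 0.47, adjusted p = 0.0863).

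NK and innate lymphoid genes gave 1 lower call among 17, the adaptor gene Tyrobp (-3.02 ± 0.57, adjusted p = 0.0330), which myeloid cells also express. It was lost in 5 of 7 fits without an array (all but DN replicate 3 and thymocyte replicate 4; -3.09 to -2.10, adjusted p up to 0.117), and the list's median was -1.30, or -0.15 on DN replicate 3. B-cell genes gave 1 higher call among 18 and a median of 0.14. Ebf1, a transcription factor of B-lineage cells, read -1.25, -2.83 and -2.73 in DN cells and -6.28, -6.65, -5.69 and -8.07 in thymocytes, where 1 of 4 arrays was well above background. Its difference of 4.04 ± 0.63 (adjusted p = 0.00372) stayed called without any one array, and was 4.02 (adjusted p = 0.224) without both dim arrays. Cd79a, a B-cell receptor chain gene, overlapped between groups (1.19 ± 0.69, adjusted p = 0.216).

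The largest lower calls outside these lists were led by Slco2b1, an organic anion transporter gene. Its probe was not well above background on any DN array and was at least 66.5-fold dimmer there, a bound that sets the thymocyte mean against the lowest signals that counted as above background on the DN arrays (means of -6.76 and 0.70, adjusted p = 0.00196). A second Slco2b1 probe went the other way without being called (2.65 ± 1.70, adjusted p = 0.333). Gpat3, an enzyme of triglyceride synthesis, read -5.80, -7.16 and -7.63 against -0.66, 0.41, 1.25 and 0.04, and this probe, too, was not well above background on any DN array. It was at least 49.0-fold dimmer there (adjusted p = 0.00196), and both of its probes were lower. Both genes stayed called without any one array, in fits that rest on DN signals not well above background. With slide as a fixed block neither was (adjusted p of 0.0564 for Slco2b1 and 0.0886 for Gpat3), and with the mean of all probes neither was (adjusted p of 0.142 and 0.0563). Without both dim arrays Slco2b1 was not called (adjusted p = 0.124) and Gpat3 was (adjusted p = 0.0494). Xrra1 (-5.56 ± 0.80, adjusted p = 0.00564) and 9930012K11Rik (-5.26 ± 0.82, adjusted p = 0.00925) stayed called without any one array as well. Their probes were well above background on 1 and 2 of 3 DN arrays, so their sizes rest partly on DN signals that were not. Without both dim arrays the difference was -4.38 for Xrra1 and -6.59 for 9930012K11Rik. Ptgs1, the cyclooxygenase COX-1 (-6.36 ± 1.32, adjusted p = 0.0404), was kept in 1 of 7 such fits, without DN replicate 3. Slc6a19, an amino acid transporter gene well above background on 1 of 3 DN arrays (-5.76 ± 1.23, adjusted p = 0.0440), was kept in 2, without DN replicate 3 or thymocyte replicate 1. In the other fits Ptgs1 ran from -6.81 to -6.22 (adjusted p up to 0.117) and Slc6a19 from -6.21 to -4.86 (adjusted p up to 0.187).

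Among the higher genes was Nlrc4, the inflammasome adaptor that answers to bacterial flagellin sensors. It read -0.25, -0.15 and -2.08 in DN cells and -7.97, -8.82, -8.52 and -9.56 in thymocytes. Both of its probes were well above background on all 3 DN arrays and on none of the 4 thymocyte arrays, and it was at least 48.7-fold higher in DN cells (adjusted p = 0.000363). It stayed called without any one array. As it passed the filter only through the DN arrays, its adjusted p, here and in those fits, rests on thymocyte signals that were not well above background. The same holds for Gm6260. Mpped2, a metallophosphodiesterase gene, read 0.01, -0.29 and -0.82 in DN cells and -7.38, -6.15, -6.82 and -7.04 in thymocytes, with 2 of 4 thymocyte arrays well above background. Its DN values were the most even of the 12 genes chosen for their size, its second probe was also higher, and its difference was 6.12 ± 0.93 (adjusted p = 0.00372). Aifm2, which encodes the ferroptosis suppressor FSP1, read 1.98, 0.96 and -1.82 against -6.78, -5.62, -8.24 and -8.05, a difference of 7.19 ± 0.88 (adjusted p = 0.00196), with 1 of 4 thymocyte arrays well above background. Mpped2, Aifm2 and the predicted gene Gm6260 (at least 25.0-fold higher, adjusted p = 0.00196) stayed called without any one array. With both dim arrays left out, the difference was 6.11 (adjusted p = 0.259) for Mpped2 and 5.44 (adjusted p = 0.135) for Aifm2, while Nlrc4 and Gm6260 were not tested.

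Csf2, the cytokine GM-CSF, was at least 14.7-fold higher (adjusted p = 0.00993) and read -2.59, -3.75 and -1.33 in DN cells against -7.95, -8.64, -9.69 and -9.19. It was highest on DN replicate 3, and without DN replicate 1 its adjusted p was 0.0519. Slc9a2, a sodium-proton exchanger gene (6.73 ± 1.28, adjusted p = 0.0131), was likewise lost without DN replicate 1 (6.20, adjusted p = 0.0819). Several others were lowest on DN replicate 3. Hoxa9, a homeobox gene of blood progenitors, read -0.91, -2.20 and -4.95 in DN cells and no higher than -8.02 in thymocytes. It was at least 13.4-fold higher (adjusted p = 0.0464), a call that held without DN replicate 3 and was lost without each of the other 6 arrays (adjusted p up to 0.195). Nr2f1, an orphan nuclear receptor gene, read 1.84, 0.19 and -3.32 and was at least 64.1-fold higher (adjusted p = 0.0168), and was lost without DN replicate 1 (adjusted p = 0.102), DN replicate 2 (adjusted p = 0.0891) or thymocyte replicate 3 (adjusted p = 0.0552). Susd4, Fstl1 and 4932438H23Rik, with differences of 7.42, 7.11 and 6.14 and adjusted p of 0.0478, 0.0430 and 0.0440, were each kept in 1 of 7 such fits, without DN replicate 3. In the other 6 fits their differences ran from 6.54 to 8.28, 6.48 to 7.67 and 4.88 to 6.41, with adjusted p up to 0.208, 0.191 and 0.197. No thymocyte array was well above background for Csf2, Hoxa9 or Nr2f1, so their adjusted p have the limit given for Nlrc4.

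**Figure D3:**
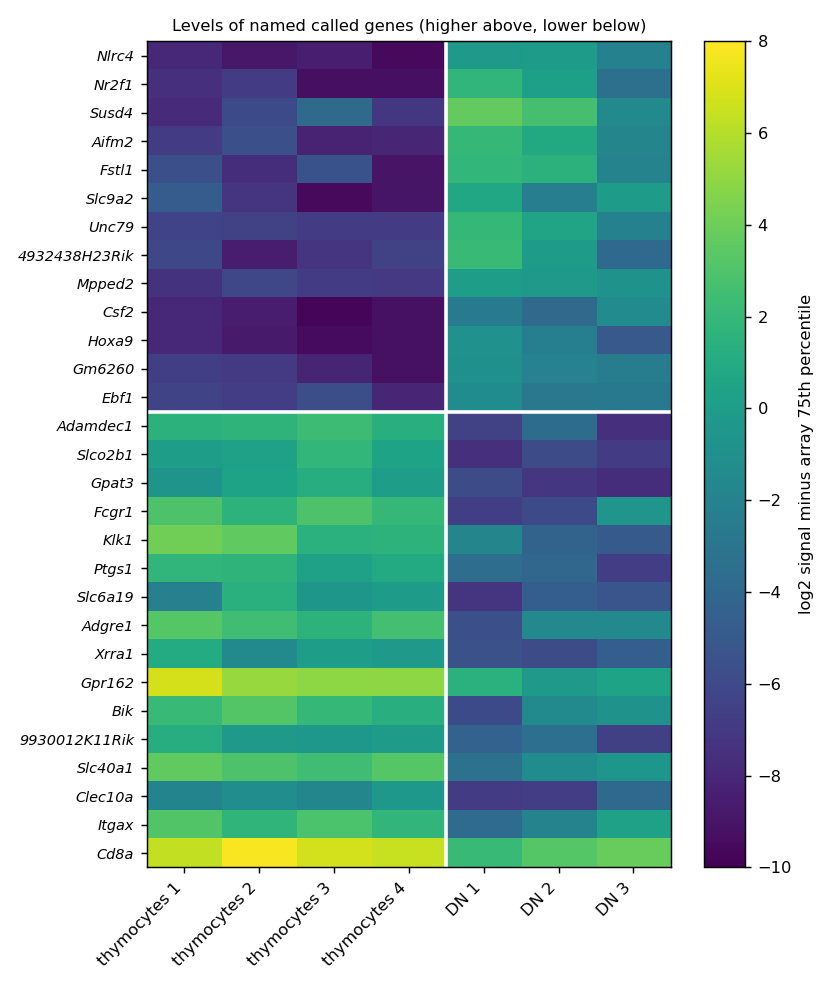
Levels (colour, log2 signal minus the array's 75th percentile) of the 13 named genes called higher in DN cells (above the white line) and the 16 called lower with the largest differences (below it), on the 4 thymocyte and 3 DN arrays. Thymocyte levels of the higher genes lie mostly below -5, and DN replicate 3 is the lowest DN array for Nr2f1, Susd4, Aifm2 and Hoxa9.

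Several lists showed no difference that held over the DN arrays. Genes of DNA replication (16 tested, median -0.09) and of mitosis (15, median -1.0) gave no call. By DN array their medians were -1.32, -0.07 and 1.05, and -2.18, -1.05 and -0.11. Growth and nutrient uptake genes (14, median 0.35), cytosolic ribosomal protein genes (18, median 0.30) and oxidative phosphorylation genes (16, median -0.54) gave no call, and their medians also ran from below 0 on DN replicate 1 (-1.03, -0.57 and -1.59) to above 0 on replicate 3 (1.59, 0.83 and 0.53). These are lists of bright genes, and the order of the 3 arrays is the one seen above for all genes with levels over 0. Among BCL2 family genes 2 of 13 were lower, Bcl2l1 and the proapoptotic gene Bik (-5.28 ± 1.04, adjusted p = 0.0326). Bik was lost without DN replicates 1 or 2 or thymocyte replicates 1, 2 or 3 (-5.82 to -3.54, adjusted p up to 0.113), and 1 of its 3 probes had the opposite sign. Bcl2 itself, the survival factor of DN and single-positive cells, had a difference of -0.05 ± 0.56 (adjusted p = 0.754), whose sign turned under 6 alternatives. Immediate-early and heat-shock genes, which can be induced by the handling of cells, gave 1 lower call among 17, Zfp36 (-2.25 ± 0.43, adjusted p = 0.0455). It was kept in 2 of 7 fits, without DN replicate 3 or thymocyte replicate 4, and ran from -2.26 to -1.88 in the others (adjusted p up to 0.177).

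Type I interferon response genes gave no call among 18 (median -0.85, and 0.55 on DN replicate 3), and regulatory T-cell genes 1 among 11 (median -1.14), the folate receptor gene Izumo1r (-3.40 ± 0.70, adjusted p = 0.0459), which was kept without DN replicate 3 and lost without each of the other 6 arrays (-3.71 to -2.85, adjusted p up to 0.157). Erythroid, fibroblast and endothelial, mast cell, and thymic epithelial genes gave no call. The 9 erythroid genes had medians of 0.64 and 1.13 on the dim DN arrays and -1.87 on replicate 3, and the 13 fibroblast and endothelial genes had medians of 1.57, 1.69 and -0.29. Col1a2, a collagen gene, read 5.19, 2.90 and 0.20 in DN cells and -5.01 to -1.32 in thymocytes (difference 5.72 ± 1.56, adjusted p = 0.0651). The thymic epithelial keratin gene Krt8 read 3.74, 2.92 and -7.65 against 2.86 to 3.36. Its difference was -3.79 (not called in the fit of all arrays), and -10.66 without both dim arrays. That second value rests on the -7.65 of DN replicate 3 alone, and the probe was well above background on 2 of 3 DN arrays. These markers of other cells moved with the dim arrays, and their part in the results was not tested. The 8 mast cell and 14 thymic epithelial genes had medians of -0.55 and -0.92.

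**Figure D4:**
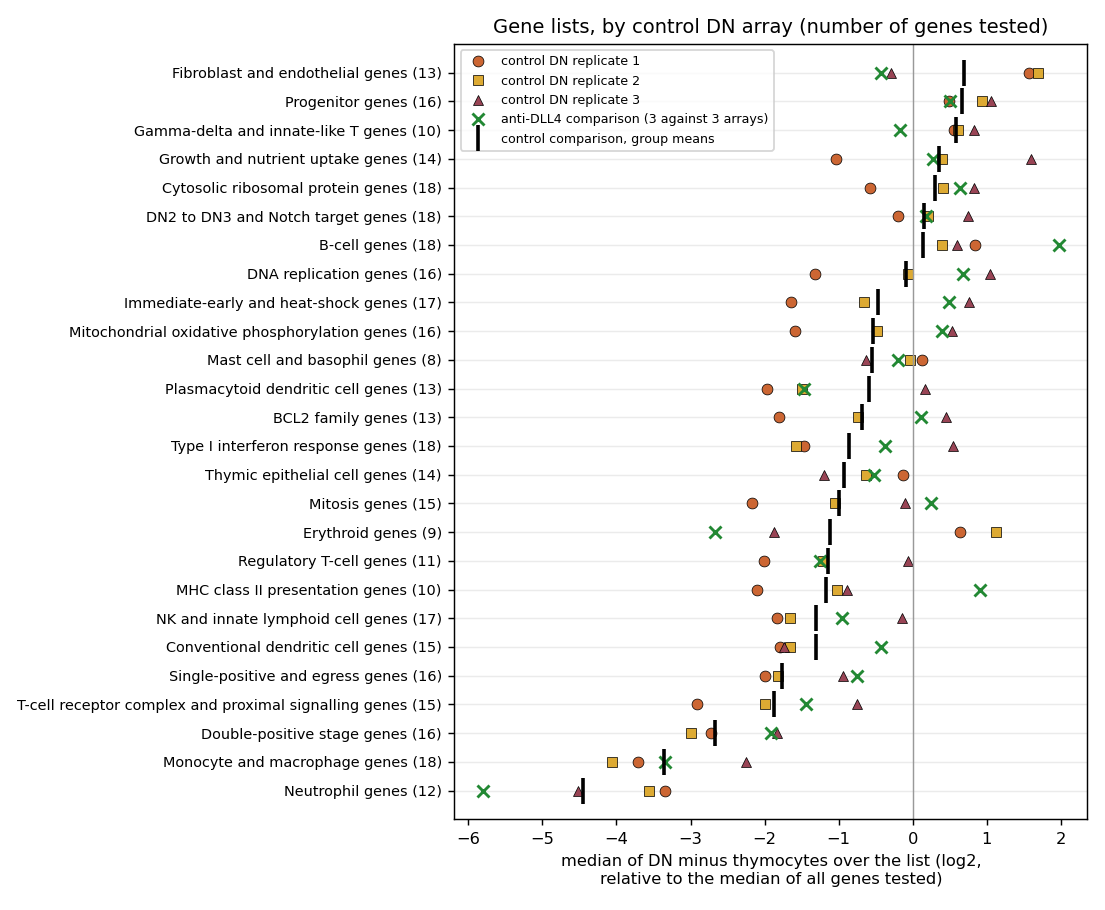
Median log2 difference, DN minus thymocytes, of the genes tested in each of 26 lists (number in brackets), for the control group means (black bars), for each control DN array (circle, square and triangle for replicates 1 to 3) and for the anti-DLL4 comparison (crosses). The monocyte and macrophage, neutrophil and DP lists lie well below 0 on every control DN array, while the lists of replication, growth and oxidative phosphorylation change sign between DN replicates 1 and 3.

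The anti-DLL4 arrays gave the same population comparison in other samples. There 5 genes (0.0247% of 20222 tested) were called higher and 48 (0.237%) lower in DN cells. All 197 genes lower in control DN cells were tested, and 19 were called lower again and 0 higher. The same sign was seen for 167 (84.8%), against 52.0% of every gene tested in both whose control difference was below 0. Of the 84 higher genes 48 were tested, and 0 were called. The same sign was seen for 32 (66.7%), against 52.5% of every gene tested in both whose control difference was above 0. Among higher genes named above, Nr2f1 (-3.35), Hoxa9 (-2.96), Aifm2 (-2.35), 4932438H23Rik (-2.02) and Susd4 (-0.63) had the opposite sign with anti-DLL4. Ebf1 (2.31), Nlrc4 (2.25), Fstl1 (0.69), Slc9a2 (0.57) and Csf2 (0.45) kept their sign. Mpped2 and Gm6260 were not tested there. The median anti-DLL4 difference was -0.79 for the lower genes and 0.52 for the higher ones. Genes called in both included Cd8a, with an anti-DLL4 difference of -5.75 (adjusted p = 0.0178), while Cd5 (-3.36, adjusted p = 0.0295) and Gpr162 (-4.73, adjusted p = 0.0163) were lower as well. The DP list had 3 lower calls and a median of -1.92. The macrophage list had 5 lower calls among 18 and a median of -3.35, beside -3.36 in controls, and C1qa, C1qc, Fcgr1 and Slc40a1 were called in both comparisons, with anti-DLL4 differences of -3.43, -4.10, -7.23 and -7.41 (adjusted p of 0.0298, 0.0178, 0.0417 and 0.0160). Adamdec1 read 2.88, 2.29 and 0.45 in Thymocytes-anti-DLL4 and -1.55, -1.25 and -4.31 in DN-anti-DLL4 arrays, with no overlap and a difference of -4.33 that was not called (adjusted p = 0.139).

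**Figure D5:**
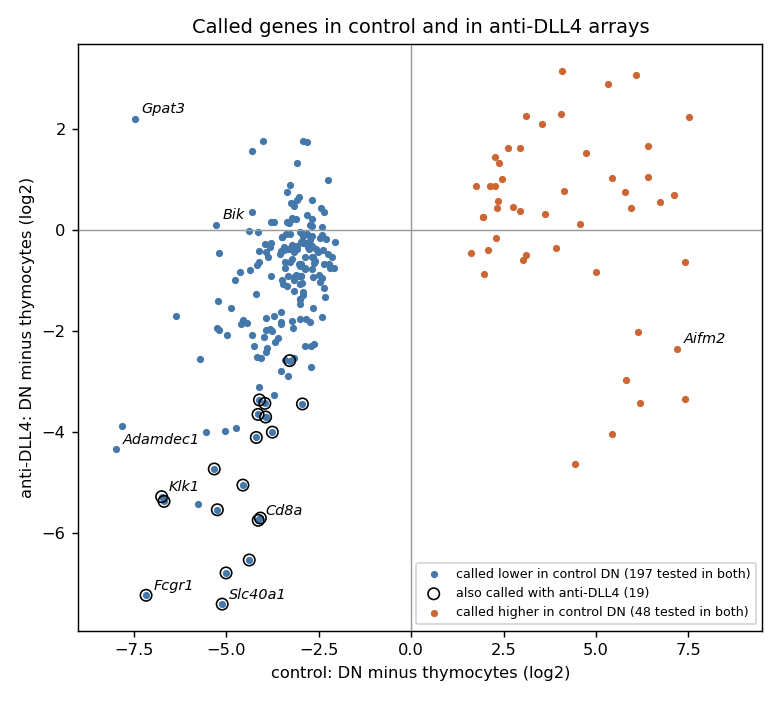
Each point is a gene called in the control comparison and tested in both, with its log2 difference, DN minus thymocytes, in control arrays (x axis) and in anti-DLL4 arrays (y axis), each relative to the median of all genes tested. Of the genes lower in control DN cells 167 of 197 lie below 0 on both axes, and the 19 circled ones were called in both comparisons.

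Whether the population difference itself changed with the antibody was tested as a contrast of the 13 arrays. It was called for 5 of 22360 genes (0.0224%), and 3 of the 281 genes of the control comparison were among them. With slide as a fixed block limma called it for 0 genes, with 2017 at an unadjusted p under 0.05 beside 1873 without the block. Aifm2 was higher in control DN cells and had a difference of -2.35 with anti-DLL4, where thymocytes read 0.80, -0.92 and -0.15 and DN cells -3.48, -2.19 and -1.38 (contrast, control minus anti-DLL4, adjusted p = 0.0132). Gpat3 was lower in control DN cells and had a difference of 2.21 with anti-DLL4, where thymocytes read 2.47, -0.11 and 2.32 and DN cells 4.51, 2.36 and 4.70 (contrast adjusted p = 0.0132). No size is given for either contrast, since the control DN arrays did not measure Gpat3 above background and 1 of 4 control thymocyte arrays measured Aifm2. The third gene was 2010309G21Rik (contrast -4.76 ± 0.67, adjusted p = 0.0396). For Cd8a, Ccr7, Adamdec1 and Ebf1 the contrast was not called, with adjusted p from 0.209 to 0.670. Ccr7 read 0.46 to 0.59 in control DN cells and 4.20, 5.34 and 4.29 in DN-anti-DLL4 cells, and its anti-DLL4 population difference was -0.53 (adjusted p = 1.00, contrast adjusted p = 0.209). Bcl2l1, Bik and Zfp36, lower in control DN cells, had anti-DLL4 differences of -0.08, 0.11 and 0.99, none of them called, and the contrast was not called for any of the 3 (adjusted p of 0.294, 0.382 and 0.188).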

How the data were processed

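The deposited spot values are Cy3 intensities of 1-colour Agilent mouse arrays. Per the file headers, Feature Extraction 9.5.3.1 removed the background and a spatial trend from every array (the submitters' processing notes give 9.5). RNA was amplified in 2 rounds, per the labels' protocols. Deposited flags mark spots well above background, saturated or outlying, and probe positions are mm8, per the file headers. The authors' deposited series table holds a ratio whose centre is unknown. Its column medians were 0.638 to 1.423, and 69.7% to 70.7% of its log2 values lay within 0.05 of the probe-centred scanner values, in the same direction.

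Here log2 signal minus the 75th percentile of each array's non-control spots was used, without outlier spots. RefSeq names (GRCm38.p6) came from accessions (26192 of 43426 probes) or from current (7233) or older symbols (3059), 6868 probes kept the file's name, and 74 whose chromosome disagreed with the named gene stayed under their ID. limma 3.58.1 in R 4.3.3 fitted 6 group means over 18 arrays. On simulated data it called 10 of 100 genes changed by 2 log2 units and 70 of 100 changed by 4. There were 6 false calls among 21489 genes. The simulated arrays had independent noise and no shift with the level of a gene, unlike the dim DN arrays. A gene that was not called may therefore still differ. Tests are two-sided. Calls use unshifted values. For a bound, the dim group's value on an array was the lowest signal still well above background there, or the probe's own if that was higher.

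The members, the 26 gene lists (378 genes, 15 of them in several lists) and the alternatives were chosen with earlier results of these data known. Named genes are the gate and marker genes, the 12 largest calls per direction with a RefSeq name, no overlap and signal on every brighter array, up to 4 calls per list (at least 2 genes, called or not), and a set of stage and cell-type genes. Satb1, Dntt, Cd3d, Cd3e, Cd3g, C1qa, C1qc, Csf1r, Tcra, Tcrg and 2010309G21Rik fell outside that rule and were chosen after their values were seen. Some genes under the rule are not reported here. Array number and signal over background limit the precision.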

Additional observations from a re-analysis of the deposited data

Results flagged for a closer look

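Among 89 named genes checked over the 4 control thymocyte arrays, 5 had 1 array far from the other 3, where chance alone marks about 1 in 20 groups. Thymocyte replicate 1 was the odd array for 4 of them. There Gpr162 read 6.86 against 4.97 to 5.22, Izumo1r 6.73 against 4.02 to 4.46, Ets2 5.93 against 6.27 to 6.33, and Uhrf1, a maintenance methylation gene, 2.71 against 4.67 to 5.04. Tlr7 read 2.84 on thymocyte replicate 3 against 0.78 to 0.93 on the others. All are log2 levels relative to the array's 75th percentile.

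The population difference of 2 named genes differed between control and anti-DLL4 mice by limma's contrast, control minus anti-DLL4. The fitted value was 9.47 log2 units for Aifm2 and -9.76 for Gpat3. Neither is a measured size, since the Aifm2 probe was well above background on 1 of 4 control thymocyte arrays and the Gpat3 probe on none of the control DN arrays. With slide as a fixed block limma called the contrast for 0 genes, with 2017 at an unadjusted p under 0.05.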

How the results depend on the processing

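The counts of called genes moved with most settings. Of the 197 lower genes 195 kept their sign with normexp and 194 with the mean of all probes. Higher and lower calls were 84 and 197 as reported. They were 1151 and 730 with normexp background correction (61.2% higher against 29.9%), 142 and 369 with quantile normalization, 91 and 94 (49.2%) with scaling to probes well above background everywhere, 81 and 116 (41.1%) with the mean of all probes, 16 and 169 (8.65%) with genes well above background on all 7 arrays, and 74 and 35 (67.9%) from the 7 arrays alone. They were 5 and 5 with slide as a fixed block, 34 and 189 (15.2%) with array strength as a covariate, 0 and 16 without both dim DN arrays, 28 and 122 (18.7%) without both bright thymocyte arrays, and 133 and 271 with every probe on its own, a setting chosen after seeing the data. Leaving out 1 array gave 14 to 2151 higher and 54 to 746 lower calls. No label pairs the samples by replicate number. Deviations of same-numbered DN and thymocyte arrays from their group means had correlations of 0.37, 0.01 and 0.14. Those of differently numbered arrays ran from -0.37 to 0.16. Such values cannot show whether samples shared animals. A replicate block gave 53 higher and 122 lower calls. For anti-DLL4 the 6 arrays alone gave 25 lower calls, and leaving out 1 array gave 0 to 12 higher and 8 to 35 lower ones. The contrast of population differences had 10 calls in the 13 arrays alone and 0 with slide as a fixed block. The named genes that turned sign were all uncalled. With normexp these were Uhrf1 (-0.21), Rplp0 (-0.35), Notch1 (-1.15), Ptcra (-0.90) and Myc (-0.67). With quantile normalization they were Cd44 (0.39), Fos (0.19) and Bcl2 (0.75). With the mean of probes they were Rplp0 (-0.077), Notch1 (-0.034) and Bcl2 (0.59), and without a filter Notch1 (-0.23). With signal on all 7 arrays they were Cd44 (0.21) and Bcl2 (0.32). With slide as a fixed block they were Notch1 (-0.75), Ptcra (-0.24) and Mki67 (0.11), and with the replicate block Cd44 (0.022) and Notch1 (-0.28). With array strength they were Cd4 (-0.51), Cd44 (0.094), Rplp0 (-0.14), Notch1 (-0.015), Fos (0.65) and Bcl2 (0.26). Without both dim DN arrays they were Cd4 (-0.28), Tek (-0.14), Ccne1 (0.17), Rpl18 (0.32), Mki67 (0.20), Fos (0.60) and Bcl2 (0.49). Without both bright thymocyte arrays they were Cd44 (0.040), Cma1 (0.029), Rplp0 (-0.023) and Notch1 (-0.58). Leaving out 1 array moved Cd4 from -0.29 to 0.76, Bcl2 from -0.19 to 0.29, Cd44 from -0.28 to 0.041 and Notch1 from -0.27 to 0.33. The cause was not tested.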
